A study of Mus musculus with 2 samples.

Results

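The 95 microRNA genes described here are the annotated hairpins outside the miR-290 cluster that had at least 10 reads summed over both libraries of Drosha knockout mouse embryonic stem (ES) cells. They were taken from the 1899 genes of GENCODE M21 biotype miRNA that have a row in the count tables, of which 419 had a read. A further 317 hairpins had 1 to 9 reads, and the 7 hairpins of chromosome 7 between positions 3218626 and 3220841 were left out. Since the hairpins were chosen by these reads, their levels are given as a description and carry no test. At the threshold, Mir3098, Mir7651 and Mir3060 had 10 reads each, while Mir540 and Mir6904 had 9, with 0 in A and 9 in B.

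Both libraries, called A and B, belong to 1 group. They are poly-A RNA of untreated Drosha knockout ES cells from the blastocyst, of 129/Ola background, at passage 7 and kept in serum with LIF, the cytokine that keeps mouse ES cells undifferentiated. The series names the paired CRISPR/Cas9 approach as the way the knockout was made, and wild-type cells were not analysed here. The titles give the cells the numbers 1 and 2, but the source names are identical, and separate cultures are not stated. A difference between the libraries may therefore be technical or a difference between lines.

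A microRNA starts as part of a long primary transcript, in which it forms a hairpin. In the nucleus Drosha, with its partner Dgcr8, cuts the hairpin out, and Dicer then trims it to a mature strand of which the seed, bases 2 to 8, pairs with target mRNAs. Many primary transcripts hold several hairpins, and many hairpins lie in introns of protein-coding genes. A count on a hairpin in poly-A RNA comes from reads of longer RNA that cover it and says nothing of the mature microRNA.

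The libraries held 29264632 (A) and 42322129 (B) counts, so that 3 counts, the upper limit that a count of 0 allows, came to 0.102 CPM in A and 0.0711 CPM in B. CPM are reads scaled to the library size by TMM, and these limits cover counting error only. Values are the mean of both libraries ± SD (n = 2). The knocked-out gene, Drosha, had 4865 reads in A and 7023 in B, and a count over the whole gene does not check the knockout. All 6 ES cell markers reached 1 CPM in both libraries (491 to 2351 CPM), against 1 of 5 trophectoderm and 1 of 4 primitive endoderm markers, none of them with 0 reads in both. Of 14 feeder fibroblast markers 7 reached 1 CPM, and the list summed to 1614 CPM in A and 1597 in B, most of it from Fn1 (1516 ± 7.44 CPM).

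Together the 95 hairpins had 3595 reads in A and 5455 in B, which was 0.0123% and 0.0129% of all counts. Their summed level was 126 ± 4.72 CPM. In bulk RNA, fewer cells with a transcript and less of it in each cell cannot be told apart. Most hairpins were thinly covered: 31 had 10 to 19 reads, 28 had 20 to 49, 18 had 50 to 99 and 18 had 100 or more. In both libraries 27 reached 1 CPM, and none had 0 reads in either. To compare hairpins with each other, reads were also divided by the annotated span, which ran from 55 to 139 bases with a median of 82 (RPKM, CPM per kilobase of span).

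Mature strands of selected hairpins from the groups below show which microRNA families these hairpins belong to. RefSeq (GRCm38.p6) gave 138 mature sequences for 80 of the 95 hairpins. They are written 5′ to 3′ with the seed in capitals, and the miR-106a to miR-363 cluster comes first because it is the largest cluster by reads.
miR-106a-5p: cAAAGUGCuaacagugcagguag
miR-18b-5p: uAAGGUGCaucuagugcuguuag
miR-20b-5p: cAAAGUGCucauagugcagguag
miR-19b-3p: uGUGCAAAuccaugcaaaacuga
miR-92a-3p: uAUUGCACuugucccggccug
miR-363-3p: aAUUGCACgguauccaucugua
miR-106b-5p: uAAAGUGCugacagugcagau
miR-32-5p: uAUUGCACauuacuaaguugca
miR-27b-3p: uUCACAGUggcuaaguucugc
miR-541-5p: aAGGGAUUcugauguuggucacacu
miR-434-3p: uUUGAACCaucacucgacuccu
miR-127-3p: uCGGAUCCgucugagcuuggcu
let-7a-5p: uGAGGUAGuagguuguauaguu
let-7g-5p: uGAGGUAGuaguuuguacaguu
miR-692: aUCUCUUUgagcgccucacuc

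Among the 120 distinct seeds, 13 were shared by members, and 23 members shared at least 1. The AUUGCAC seed of the miR-92 family stood on Mir363, Mir92-2 and Mir32, whose reads came to 154 in A and 224 in B (5.28 ± 0.0403 CPM). The AAAGUGC seed of the miR-17 family stood on Mir20b, Mir106a and Mir106b, with 111 reads in A and 118 in B (3.29 ± 0.699 CPM). Each of these seeds is carried by 7 hairpins with a row in the tables, and the remaining ones, such as Mir17, Mir20a, Mir93, Mir25 and Mir92-1, had at most 1 read. The UCACAGU seed joined Mir27b with Mir27a (2.92 ± 0.127 CPM), and the let-7 seed GAGGUAG joined 4 members (2.22 ± 0.147 CPM).

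Of the reads of both libraries, 52.3% lay on 14 hairpins whose sequence is nearly repeated in another gene. A hairpin was put in this set when at least 90% of its bases were identical in the transcript of a gene that does not overlap it, by blastn against the GENCODE transcripts. The rest of the genome was not searched. A hairpin called without a copy, such as Mir6236 below, may therefore have copies outside annotated transcripts. The 14 held 49.7% of member reads in A against 54.0% in B and summed to 65.4 ± 6.29 CPM. Their median level was 17.1 RPKM against 4.58 RPKM in the other 81. Such matches were found for 14.7% of the 95 members and for 31.4% of 1797 other hairpins in the tables. No source used here says how reads of such sequences were assigned, and the levels of the 14 are uncertain. The other 81 hairpins had 1808 reads in A and 2508 in B and summed to 60.5 ± 1.57 CPM.

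The hairpin with the most reads among the 95 members was Mir692-1 (ENSMUSG00000076218, chr17:6895229-6895337, minus strand), which lies outside any other gene. It had 672 reads in A and 1001 in B, 214 ± 5.23 RPKM, and 105 of its 109 bases are identical in the transcript of Ftl1, the ferritin light chain. Its relatives Mir692-2 and Gm22774 match Ftl1 too and had 15 and 25 reads in A, and 25 and 29 in B. Ftl1 had 28.9 ± 1.73 CPM, and the pseudogene Ftl2-ps, whose exon holds 83.5% of the span of Mir692-2, had 419 ± 13.7 CPM. Gm26384 (chr17:21284103-21284212) had 303 reads in A and 591 in B, with 108 of 110 bases identical in Eef1a1, the translation elongation factor at 10052 ± 139 CPM. It lies on the strand opposite to an intron of Vmn1r236, a vomeronasal receptor gene with 0 reads in both libraries. Gm23374, inside the pseudogene Gm16385, had 34 and 45 reads and matches 83 of 84 bases of the cytoskeletal actin Actg1.

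Gm27529 (chr15:7975328-7975407, inside the processed pseudogene Rpl19-ps6) had 238 reads in A and 370 in B (105 ± 5.76 RPKM). All of its 80 bases are identical in the transcript of the ribosomal protein gene Rpl19, and its sequence is shown to make the match visible.
Gm27529: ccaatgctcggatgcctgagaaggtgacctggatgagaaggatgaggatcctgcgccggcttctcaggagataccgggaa
It matches transcripts of 26 genes, among them Rpl19-ps11, which had the most reads of these (686 ± 19.97 CPM). The count of Gm27529 is therefore that of a stretch which a ribosomal protein mRNA also holds.

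A trio of 57-base hairpins on different chromosomes matched each other. Gm23935 lies opposite to an intron of Zc3h7a (chr16:11144125-11144181, plus strand), Gm24270 in an intron of Peak1 (chr9:56223715-56223771, minus strand) and Gm24187 outside any other gene (chr13:9834469-9834525, minus strand). The sequences are printed from the GENCODE transcripts, with the base that differs from Gm23935 in capitals.
Gm23935: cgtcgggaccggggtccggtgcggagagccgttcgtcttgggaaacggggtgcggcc
Gm24270: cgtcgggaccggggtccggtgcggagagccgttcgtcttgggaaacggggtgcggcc
Gm24187: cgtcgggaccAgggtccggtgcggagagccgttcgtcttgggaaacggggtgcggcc
Gm24270 is identical to Gm23935, and Gm24187 differs by G11A, counted from 1 at the 5′ end of the hairpin with the base of Gm23935 first. Gm23935 had 209 reads in A and 344 in B, Gm24187 had 116 and 236, and Gm24270 had 85 and 125. The 2 identical hairpins had unequal counts, 134 ± 12.7 RPKM for Gm23935 and 51.4 ± 0.791 RPKM for Gm24270. In both libraries Gm23935 was above Gm24187 and Gm24187 above Gm24270. The matches found for Gm23935, Gm24187 and Gm24270, in 5, 4 and 5 genes, were all microRNA genes. Sequence outside the annotated transcripts was not searched. How reads were divided among such sequences is not given, so this order may not be that of the loci.

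The remaining members of the set were smaller. Gm26298 (72 and 111 reads) matches transcripts of 85 genes, and Gm22907 (8 and 12) and Gm27903 (3 and 11) match those of 429 and 389 genes. Mir3070a and Mir3070b, neighbours in the imprinted domain of chromosome 12, match each other at 84 of 89 bases. They had 2 and 5 reads in A and 22 and 25 in B.

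**Figure D1:**
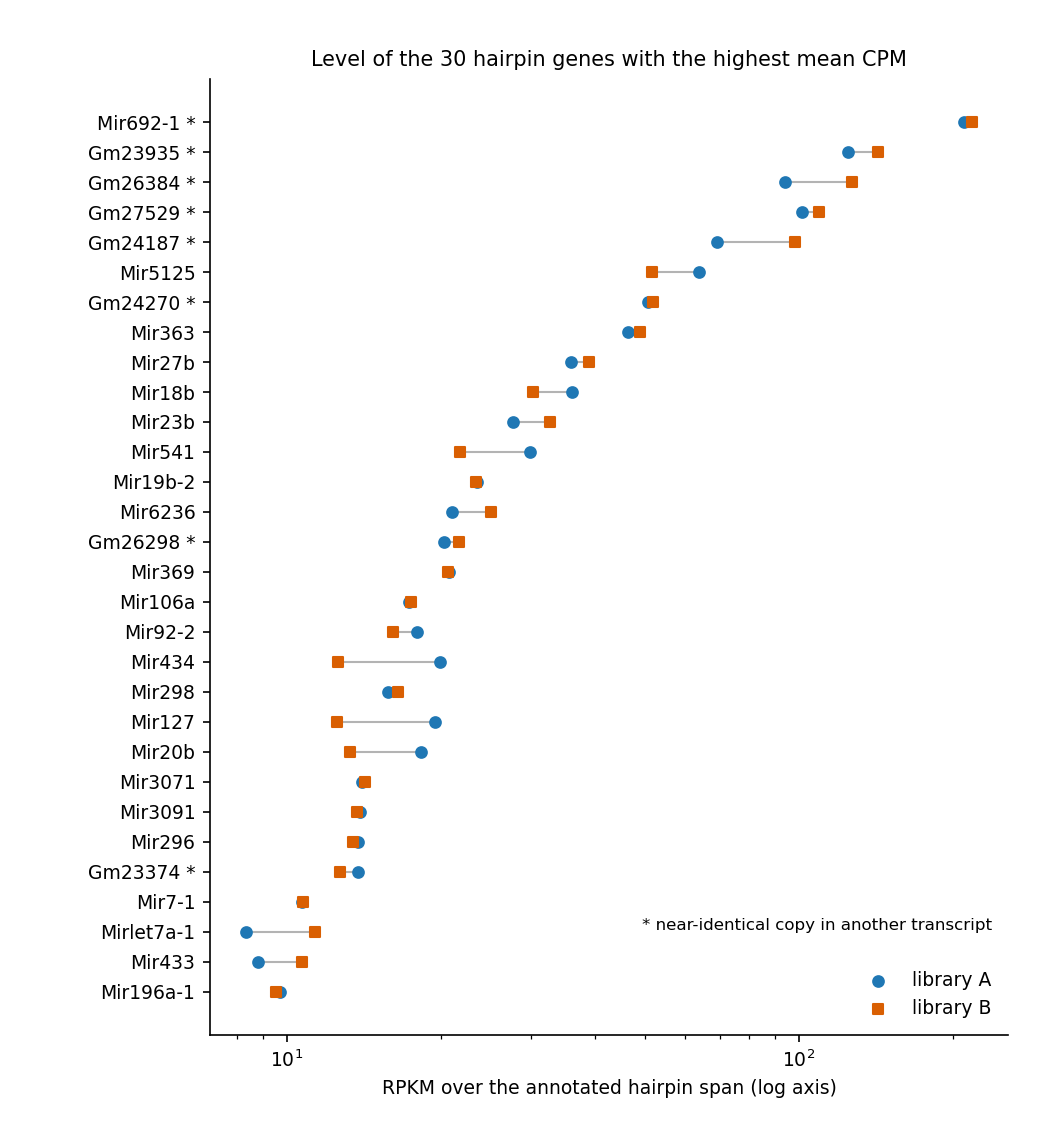
RPKM over the annotated hairpin span (log axis) of the 30 hairpins with the highest mean CPM, in library A (circles) and library B (squares), joined by a line. An asterisk marks a near-identical copy in another transcript: 6 of the 7 highest rows carry it, and Mir5125 is the highest without it.

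Among the 81 hairpins without such a copy, Mir5125 led (ENSMUSG00000092981, chr17:23823291-23823369, plus strand), in an intron of Srrm2, a scaffold protein of nuclear speckles. With 148 reads in A and 172 in B it reached 57.7 ± 8.68 RPKM, which was 88.6% of the density over the exons of Srrm2 (836 ± 23.2 CPM). Next came Mir363 with 102 and 155 reads (47.7 ± 1.84 RPKM), Mir27b with 77 and 120 (37.4 ± 2.11 RPKM), Mir18b with 88 and 106 (33.2 ± 4.16 RPKM) and Mir23b with 60 and 102 (30.1 ± 3.55 RPKM). Mir6236, a hairpin of chromosome 9 outside any other gene, had 76 and 130 reads (23.0 ± 2.81 RPKM). In RPKM, Mir5125 was above Mir363 and Mir363 above Mir27b in both libraries, while Mir18b was above Mir27b and Mir23b in A and below both in B. The 10 members with the most reads held 58.2% of all member reads, and 43.2% when the set with copies was left out and the 10 leading ones of the rest were summed.

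By position in the genome, 37 members fell in 10 clusters and 58 were single. Hairpins were chained when at most 10 kb apart on 1 strand, and 10 clusters were also found at 5 and at 50 kb. Clustered members held 28.6% ± 1.65 of all member reads and 58.4% ± 0.714 of those on hairpins without a copy. The 46 single members without a copy summed to 25.2 ± 0.220 CPM, and the 37 clustered ones, of which only Mir3070a and Mir3070b have a copy, to 36.0 ± 0.729 CPM.

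The miR-106a to miR-363 cluster on the X chromosome (chrX:52741693-52742567, minus strand) is a relative of the miR-17 to miR-92a cluster, which drives proliferation. All 6 of its hairpins were members, with 372 reads in A against 499 in B (12.2 ± 0.608 CPM). This was 20.2% ± 0.480 of the reads on hairpins without a copy, from 875 bases of the genome. Along the direction of transcription the order is Mir106a (17.4 ± 0.133 RPKM), Mir18b (33.2 ± 4.16), Mir20b (15.8 ± 3.53), Mir19b-2 (23.5 ± 0.0914), Mir92-2 (17.1 ± 1.30) and Mir363 (47.7 ± 1.84). Levels thus spread 3.01-fold within 1 cluster and did not run up or down with position, with Mir363, the last, the highest in both libraries. Mir106a, Mir20b and Mir92-2 had opposite orders in the libraries, with Mir20b the highest of them in A and the lowest in B. Mir106a overlaps an exon of the non-coding gene Kis2 with 7.69% of its span, and the next hairpin lies 150 bases downstream of Kis2. Kis2 itself had 327 reads in A and 421 in B, 4.95 ± 0.389 RPKM over its exons, a lower density than that of any hairpin of the cluster.

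Its relative on chromosome 14 looked different in the tables. All 6 hairpins of miR-17 to miR-92a had 0 reads in both libraries, although their host gene Mir17hg had 4087 reads in A and 5906 in B. These hairpins lie with their whole span in exons of Mir17hg, on the same strand. In the related miR-106b to miR-25 cluster of the replication helicase gene Mcm7, Mir93 and Mir25 lie wholly in Mcm7 exons and had 0 reads. Mir106b, in an Mcm7 intron 21 bases from an exon, had 35 reads in A and 25 in B (10.9 ± 5.18 RPKM). Whether the zeros come from the way reads of overlapping genes were counted was not tested.

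The imprinted Dlk1 to Dio3 domain of chromosome 12 held 18 members, the most of any region. Its plus-strand hairpins and the non-coding RNAs Meg3, Rian and Mirg are known to be expressed from the maternal copy. The protein-coding genes Dlk1, Rtl1 and Dio3 are known to be expressed from the paternal one. Mir3071, on the minus strand, is also among the 18. The 438 reads of the 18 hairpins in A and 602 in B gave 14.6 ± 0.473 CPM, which was 11.6% ± 0.812 of all member reads and 23.0% ± 1.21 of those on hairpins without a copy when Mir3070a and Mir3070b were left out. Meg3 had 247 ± 6.198 CPM, Rian 387 ± 4.73 and Mirg 116 ± 1.78. By contrast, Dlk1 had 63 reads in A and 106 in B, Dio3 had 15 and 41, and Rtl1 8 and 7.

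The longer of the domain's hairpin clusters runs from Mir379 to Mir3072 (chr12:109709060-109747960, plus strand). Of its 39 annotated hairpins 34 have a row, 23 had a read, 10 were members and 11 had 0 reads. The members had 236 reads in A against 315 in B (7.75 ± 0.412 CPM). Mir541, in a Mirg intron (chr12:109742409-109742498), led with 79 and 83 reads (25.9 ± 5.71 RPKM), followed by Mir369 with 48 and 69 (20.7 ± 0.0146 RPKM) and Mir496a with 22 and 34 (9.84 ± 0.497 RPKM), while Mir654 was the lowest with 6 and 7 (2.20 ± 0.326 RPKM). The spread between members was 11.7-fold in the mean, 11.1-fold in B and 18.9-fold in A, where Mir376c (1.59 RPKM) was the lowest. The 7 members inside Mirg stood at the far end of the cluster, and the 3 upstream of it, Mir376c, Mir654 and Mir300, had 2.86 ± 1.80, 2.20 ± 0.326 and 5.46 ± 1.61 RPKM. The 11 hairpins with 0 reads in both libraries were the 4 whose whole span is Mirg exon (Mir134, Mir485, Mir377 and Mir410), Mir668, with 1.52% of its span in an exon, and 6 outside any other gene (Mir379, Mir411, Mir381, Mir539, Gm27379 and Mir544).

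The other cluster of the domain, from Mir770 to Mir136 (chr12:109563692-109595388), had 7 members among 13 hairpins with a row. Of these, 5 lie opposite to Rtl1, whose mRNA their mature strands are known to pair with perfectly. Mir434 had 55 reads in A and 50 in B (16.3 ± 5.19 RPKM), Mir127 had 40 and 37 (16.0 ± 4.92 RPKM) and Mir433 had 32 and 56 (9.75 ± 1.34 RPKM). Mir432 (21 and 35) and Mir431 (14 and 14) had fewer reads. All 5 exceeded the density over the exons of Rtl1 itself, which was 0.0345 ± 0.0119 RPKM. Mir3070a had the lowest mean of this cluster's members, at 3.31 ± 3.60 RPKM, but in B it was above Mir431 (5.86 against 3.64 RPKM). On the Rtl1 strand, Mir3071, whose span lies wholly in the Rtl1 exon, had 33 and 48 reads, so 2 strands of the same locus carried hairpin counts. The labels call the protocol reverse-stranded, but no source used here gives the strand setting of the counting, and the strand of these reads is therefore uncertain.

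**Figure D2:**
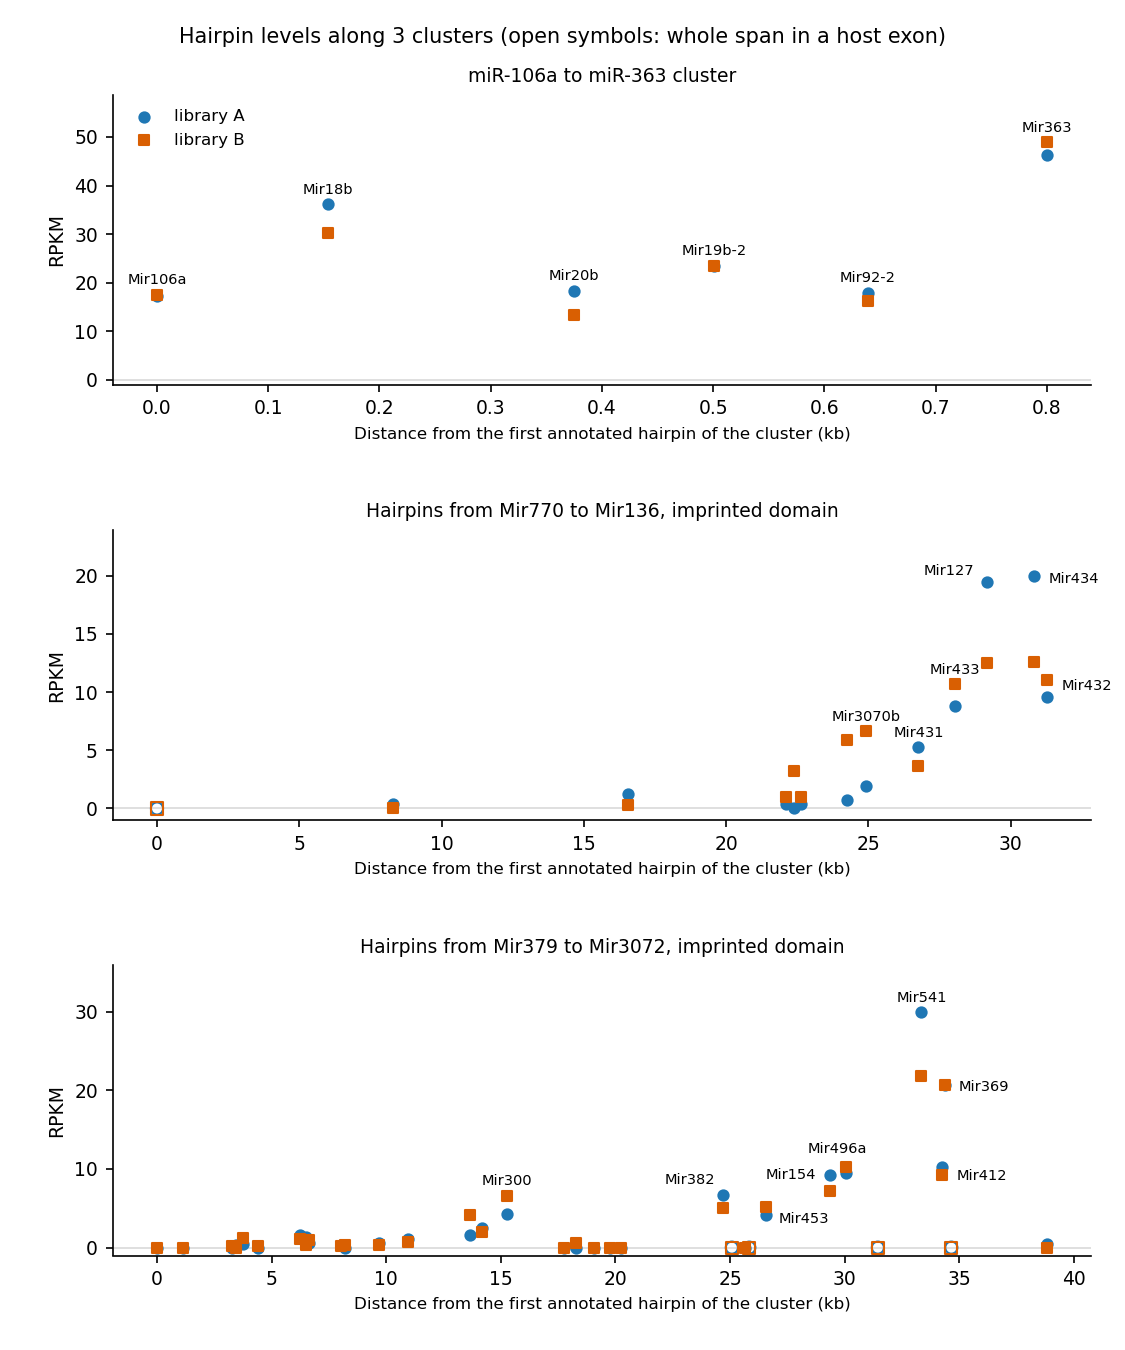
RPKM of each hairpin with a row in the tables against its distance (kb) from the first annotated hairpin of its cluster, for library A (circles) and B (squares); open symbols mark hairpins whose whole span lies in a host exon. All 6 hairpins of the top panel lie at or above 13 RPKM in both libraries, while in the lower panels the open symbols are at 0 and the highest hairpins stand near the far end.

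The other clusters were small. Mir23b and Mir27b on chromosome 13 had 60 and 77 reads in A and 102 and 120 in B. They lie in 2010111I01Rik, Mir23b in an intron and Mir27b wholly in an exon, with densities of 735% and 912% of the density over the exons of that gene. Mir23b and Mir27b thus had like levels on either side of an exon border. Their paralogs Mir23a and Mir27a on chromosome 8, outside any other gene, had 7 and 6 reads in A and 11 and 7 in B.

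Mir298 and Mir296 on chromosome 2, in the imprinted Gnas domain, had 38 and 32 reads in A and 57 and 45 in B (16.1 ± 0.474 and 13.6 ± 0.222 RPKM). They lie outside any annotated gene, 13652 and 14112 bases downstream of the antisense RNA gene Nespas (286 reads in A and 284 in B). Mir301b and Mir130b in an intron of 2610318N02Rik had 13 and 14 reads in A and 25 and 19 in B. Mir374b and Mir421 lie in Ftx, a non-coding gene of the X-inactivation centre, and had 7 and 6 reads in A and 8 and 9 in B. Mir181c and Mir181d, in an intron of the germ cell gene Nanos3, had 11 and 5 reads in A and 7 and 12 in B. Mean RPKM differed by at most 1.22-fold within each of these pairs. Single libraries could differ by more, and did so most for Mir181c, which was 1.78-fold above Mir181d in A and 2.12-fold below it in B. Mir421 was 1.41-fold above Mir374b in B. Mir130b was 1.27-fold above Mir301b in A and 1.11-fold below it in B.

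The let-7 family, whose mature strands build up as ES cells differentiate, was thinly covered. Of 11 annotated hairpins 9 have a row, 5 had a read and 4 were members. Mirlet7a-1, in an exon of the non-coding gene 6720427I07Rik, had 23 reads in A and 45 in B (9.84 ± 2.12 RPKM), against 1.74 ± 0.0252 RPKM over the exons of that gene. Mirlet7g, in an intron of the histone methyltransferase subunit gene Wdr82, had 20 and 29 reads (7.78 ± 0.0421 RPKM). Mirlet7b and Mirlet7c-2, both in an exon of Lncppara, which has no row in the tables used here, had 12 and 7 reads in A and 14 and 10 in B. Mirlet7i had 2 and 5 reads and stayed below the threshold.

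Other lists of hairpins gave few reads. The 5 hairpins known to be made without the Drosha and Dgcr8 cut (Mir320, Mir484, Mir877, Mir1224 and Mir702) had 0 reads in both libraries. Of miR-302 to miR-367, a cluster of the early embryo, only Mir367 had a read, 1 in B. Mir15b and Mir16-2 in Smc4, a condensin gene with 292 ± 8.18 CPM, had 0 reads. Their relatives in Dleu2 had 10 and 12 (Mir15a) and 1 and 3 reads (Mir16-1). Of the epithelial and sensory cluster, Mir182 had 4 and 11 reads, Mir183 had 3 and 1, and Mir96 had 3 and 2. A count of 0 allows up to 3 counts, so the zeros here are counts under the limit at this depth and do not show absence.

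The hairpins were next sorted by their position relative to other annotated genes. On the same strand, 26 members overlapped an exon and 37 lay in an intron of another gene; 9 lay only opposite to a gene and 23 outside any other gene. Exonic members held 19.6% ± 0.225 of member reads, intronic ones 19.7% ± 1.69, those opposite to a gene 20.2% ± 1.39 and those outside genes 40.5% ± 0.524. Position inside a gene on the same strand thus accounted for 39.1% of member reads. Without the hairpins that have a copy this was 58.6%, since the shares became 22.8% ± 1.10, 35.9% ± 1.31, 8.90% ± 0.795 and 32.5% ± 1.01 in the same order. With protein-coding genes alone as hosts it was 22.2%.

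**Figure D3:**
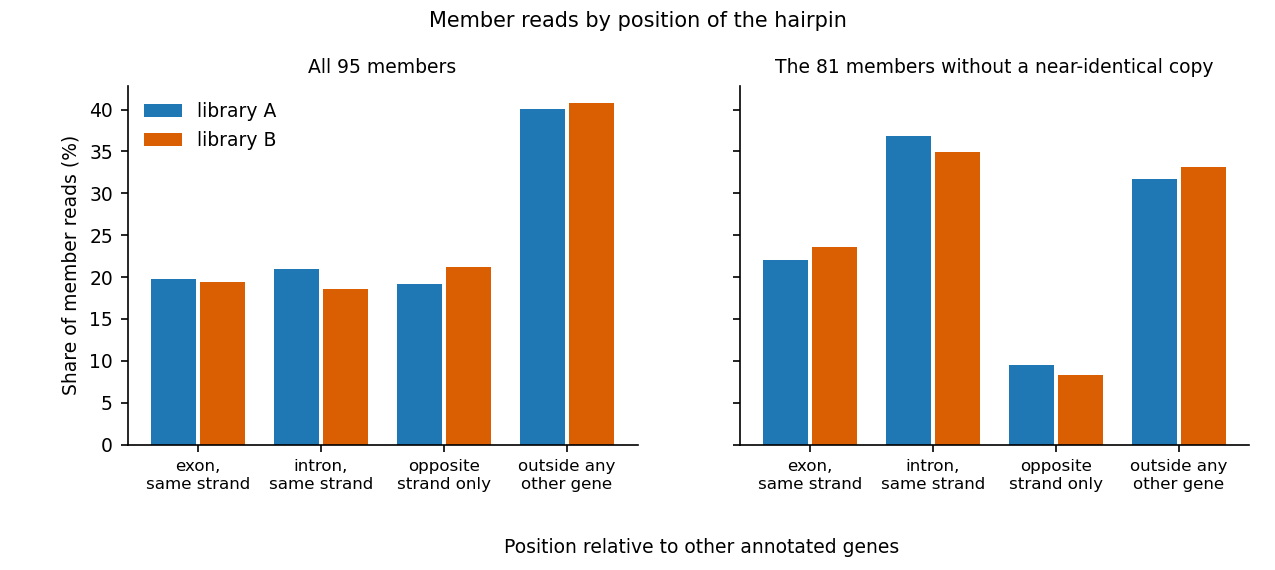
Share of member reads (%) in each position class in library A and library B (bars, 1 library each), for all 95 members and for the 81 without a near-identical copy. The class outside any other gene is the highest on the left, at 40.1% and 40.8%, and the intronic class on the right, at 36.8% and 34.9%.

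Members of each class differed in their leaders. Of the exonic members, Gm27529, Mir27b and Mir369 had the highest mean CPM, of the intronic ones Mir5125, Gm24270 and Mir541 (which had 162 reads in all, as many as Mir23b), of those opposite to a gene Gm26384, Gm23935 and Mir434, and of those outside genes Mir692-1, Gm24187 and Mir363. Median levels were 5.46 RPKM for exonic, 3.86 for intronic, 10.3 for opposite-strand and 9.61 RPKM for other members. In every class 1 or 2 of the 3 leading hairpins belong to the set with copies.

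How much of a hairpin is exon went with whether it had reads. Of 120 hairpins that lie wholly in an exon of a gene with at least 10 CPM, 12 had a read (10%) and 6 were members. Where only part of the span was exon this was 26 of 63 (41.3%), with 11 members, and in introns of such genes 199 of 452 (44.0%), with 33 members. Where the exon belonged to a gene that has no row in the tables, 11 of 28 hairpins (39.3%) had a read. A read inside a wholly exonic hairpin overlaps 2 genes, and a counter can drop it, give it to 1 gene or give it to both. No source used here gives the setting, and its part in these shares was not tested.

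Among intronic hairpins, those in abundant hosts had reads more often. In hosts below 1 CPM, a class that also takes in any host with no row, 14 of 170 hairpins had a read and 1 was a member. From 1 to 10 CPM it was 16 of 98 with 3 members, from 10 to 100 CPM 131 of 340 with 14 members, and at 100 CPM or more 68 of 112 with 19 members. The share with a read thus went from 8.24% to 60.7% over these host levels, where hairpin and host share library and depth. Over the 37 intronic members, which share both libraries, Spearman's rho between the mean CPM of hairpin and host was 0.50. It was drawn from the reads that chose these members, so it is a description and adds no support to the shares above.

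Reads lay less densely on the intronic members than on the exons of their hosts. These members were chosen by their reads out of 720 intronic hairpins with a row, of which 229 had a read. In a host of low level only a dense hairpin reaches the threshold, so the densities describe the members alone. The median density of the 37 was 29.3% of that of the host exons, a log2 ratio of -1.77, and 7 were above their host. The lowest was Mir3091 in the ribosomal protein gene Rps21, with 31 reads in A and 44 in B, 13.8 ± 0.134 RPKM and 3.06% of the host density. Mir7-1, in the RNA-binding protein gene Hnrnpk, had 34 and 49 reads and 10.2% of the host density, and Mir106b had 7.68% of that of Mcm7. At the other end were Mir23b, Mir541 in Mirg (162%), Mir15a in Dleu2 (190%), Mir374b (219%) and Mir421 (267%) in Ftx, Gm24270, which has copies (900%), and Mir7666 in Fgf20. The last had 5 and 7 reads in a host with 1 and 4. Intronic members lay 1 to 4341 bases from the nearest host exon, with a median of 429, and 7 were closer than 100 bases. A read can lie on a hairpin with only a part of its length, and density over the short span then overstates the level. With 49 or 99 bases added to each span, for reads of 50 or 100 bases, the median log2 ratio was -2.50 or -3.01.

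**Figure D4:**
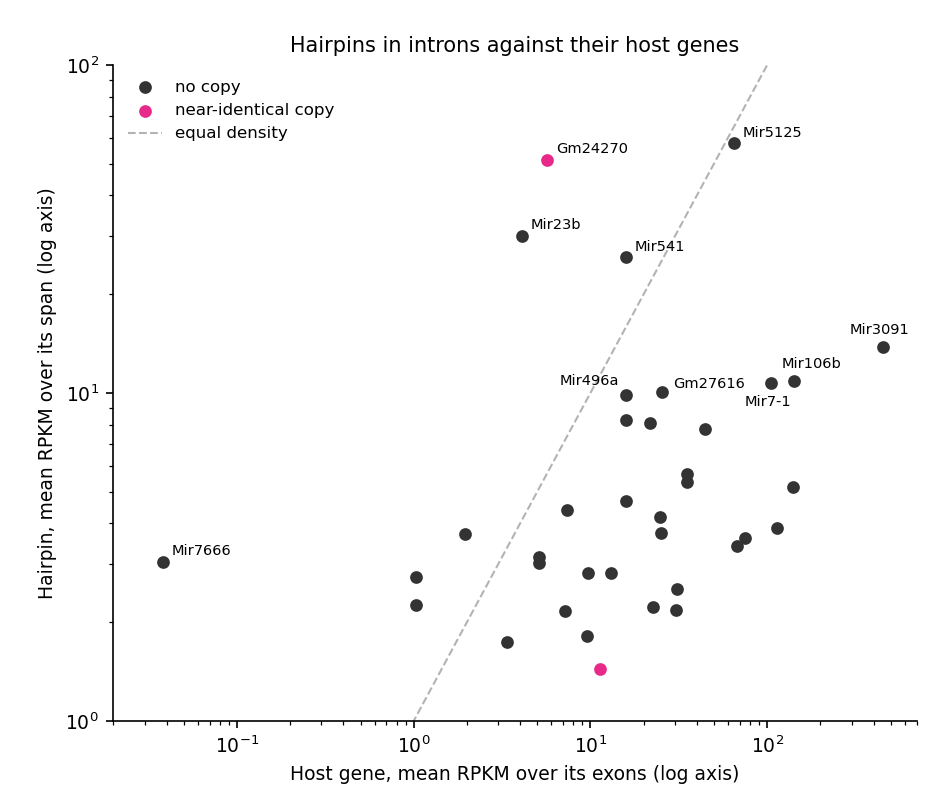
Mean RPKM of the 37 intronic members over their spans against mean RPKM of their host genes over exons (both log axes), 1 point per hairpin; the dashed line marks equal density and colour marks hairpins with a near-identical copy. Points below the line are the 30 hairpins less dense than their host, with Mir3091 farthest to the right, and 7 lie above it.

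Outside annotated genes, hairpins without a copy could still lie close to one. Mir196a-1, in the HoxB cluster and known to target Hox mRNAs, had 29 reads in A and 41 in B (9.61 ± 0.120 RPKM) and begins 296 bases downstream of Gm53, which had 9.75 ± 0.0486 CPM. Mir29a, known to target collagen and DNA methyltransferase mRNAs, had 4 and 13 reads and begins 345 bases downstream of Gm27019. Mir221, a hairpin known for targeting the cell cycle inhibitor p27, lies 10593 bases downstream of the nearest gene on its strand and had 11 and 6 reads. By contrast, Mir34a, a known p53 target with 4 and 7 reads, is counted as exonic, since it overlaps Gm37795 with 16.7% of its span.

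Both libraries were compared hairpin by hairpin to see whether the members differ between them. A two-sided exact binomial test set the share of a gene's reads that came from B against the 59.0% that the scaled depths give, with Benjamini-Hochberg adjustment over all genes with at least 10 reads. It weighs a difference against counting error only and compares 2 libraries, not conditions. Of 18198 genes 417 passed an adjusted p of 0.05, 2.29% of those tested, with 1.3% higher in B and 0.989% higher in A. Of the 95 hairpins 2 passed (2.11%), a share near that background. Before adjustment, 11 hairpins (11.6%) and 12.4% of all genes had a p under 0.05. The median log2 ratio of B over A was 0.01 for the hairpins and 0.00 for all genes tested. Within 2-fold were 79 of 95 hairpins and 17657 of 18198 genes, shares that were not matched for read depth. Among the hairpins with at least 50 reads, 35 of 36 were within 2-fold.

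Both hairpins that passed were higher in B and belong to the set with copies. Gm26384 had 10.3 CPM in A against 14.0 in B, with a log2 ratio of 0.44 (adjusted p = 0.0016, exact binomial test, Benjamini-Hochberg). Its match Eef1a1 had a log2 ratio of 0.03 in the same comparison. Mir3070a had 0.0682 CPM in A, below the level of 3 counts, and 0.521 CPM in B, with a log2 ratio of 2.64 (adjusted p = 0.0344, exact binomial test, Benjamini-Hochberg). With the trend of the ratio with GC content removed, an alternative chosen after seeing the data, the exact binomial adjusted p was 0.0171 for Gm26384, 0.0659 for Mir3070a and 0.0462 for Gm24187 (log2 ratio 0.58), so Mir3070a, with a log2 ratio of 2.68, no longer passed and Gm24187 did. This alternative again called 2 of the 95 hairpins, against 0.791% of all genes.

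Of the 81 hairpins without a copy 0 passed the exact binomial test, against 2.29% of all genes. Of these 81, 7 (8.64%) had an unadjusted p under 0.05, against 12.4% of all genes. The lowest was that of Mir106b, with 1.19 CPM in A against 0.592 in B (log2 ratio -1.002, exact binomial p = 0.0082, adjusted p = 0.16). Mir434 had 1.87 CPM in A and 1.18 in B. The clusters kept close sums: miR-106a to miR-363 had 12.7 CPM in A and 11.8 in B, and the domain on chromosome 12 had 14.9 and 14.3. In the same comparison 4 of 12 tested fibroblast markers, Col1a2, Col3a1, Dcn and Postn, were higher in A. Their part in the hairpin values was not tested.

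**Figure D5:**
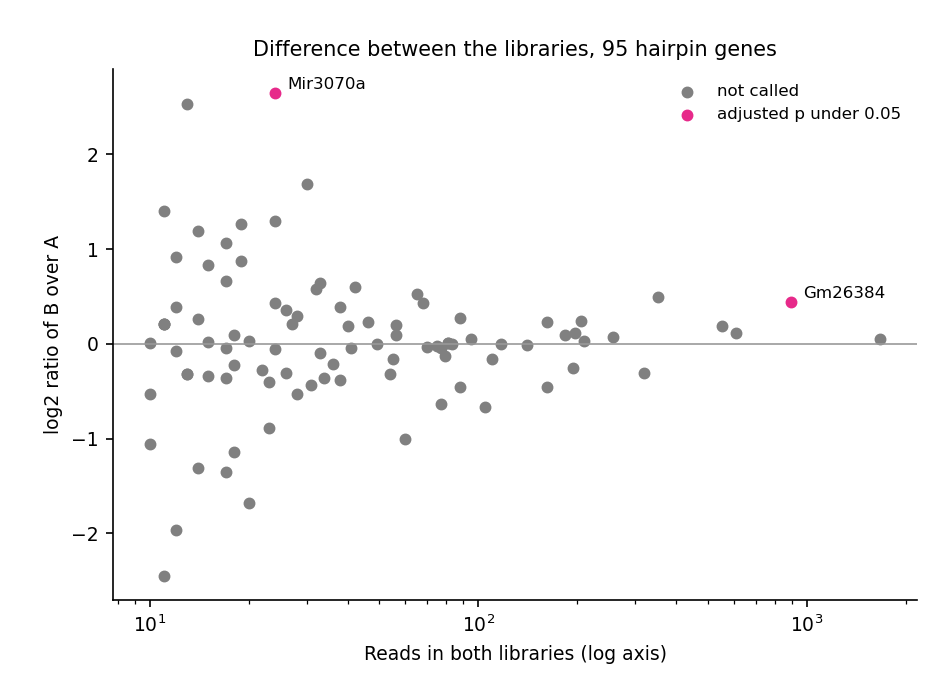
log2 ratio of library B over library A against the reads in both libraries (log axis), 1 point per hairpin for all 95; colour marks an adjusted p under 0.05. Ratios spread from -2.45 to 2.64 at few reads and narrow towards 0 as reads rise, and the 2 coloured points are Mir3070a and Gm26384.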

How the data were processed

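The poly-A RNA of 1 group, Drosha knockout ES cells of the mouse, was sequenced in 2 libraries. RNA was taken with Trizol and made into libraries with the TruSeq RNA kit, per the labels' protocols. Each deposited file holds the authors' counts of reads per Ensembl gene for 1 library, with no normalization. STAR 2.4.2a, featureCounts 1.4.5-p1 and mm10 are named without roles, per the submitters' processing notes. No source used here gives the strand setting of the counting, or what was done with reads that lie in overlapping genes or match more than 1 place.

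The members and gene lists were chosen with earlier results of these data known. Positions, biotypes and transcripts came from GENCODE M21 (GRCm38, which is mm10), which matched 97.5% of 43629 gene IDs. Counts were scaled by TMM (edgeR 4.0.16, R 4.3.3) on genes with at least 10 reads. Log2 ratios add 0.5 reads to each count. With 1 library a side no dispersion can be estimated, so an exact binomial test (scipy 1.17.1, Python 3.11.15) was used. Its p-values measure only counting error between these libraries, which may differ for technical reasons. Host genes are genes other than small RNAs. Copies were searched with blastn 2.17.0 (e-value at most 1e-04) in GENCODE transcripts only, not in the genome.

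Named were the 15 members with the highest mean CPM, the members of each cluster (all if 4 or fewer, otherwise the 3 highest and the lowest), the 3 highest of each position class, called members, the hairpins at the threshold, host genes and the listed hairpins. Others, such as Mir3091, Mir7-1, Mir7666, Mir15a, Mir196a-1, Mir29a, Mir221, Mir34a, Mir431, Mir432 and members of the set with copies, were chosen after their values were seen. Alternatives were other scalings (total counts, DESeq2 1.42.0), other filters, edgeR's exact test, each library alone, other host, gap and span settings, and, after seeing the data, removal of the GC trend (20 bins) and of hairpins with a copy.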

Additional observations from a re-analysis of the deposited data

How the results depend on the processing

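The count of 2 hairpins called between the libraries was 2 with total counts (2.32% of all genes called), DESeq2 size factors (2.34%), a filter of 1 read (1.45%) and the GC trend removed (0.791%), 1 of 36 tested with a filter of 50 reads (2.97%), and 0 with a coefficient of variation of 0.1 assumed in edgeR's exact test, which called 1 gene in all. Scaling by total counts moved every log2 ratio by -0.01. Thresholds of 5 reads, 20 reads, and 5 reads in each library gave 140, 64 and 79 members, and the number of clusters was 10 at every gap tried. The share of reads in hairpins inside a gene on the same strand, 39.1%, was 38.0% to 40.7% in single libraries, 37.3% among hairpins with at least 20 reads, 22.2% with protein-coding hosts alone and 58.6% without hairpins that have a copy. The share of the 10 leading members, 58.2%, was 56.7% to 59.5% in single libraries, 59.0% ranked per base, and 43.2% without hairpins that have a copy. The median log2 ratio of hairpin to host density, -1.77, was -1.99 to -1.95 in single libraries, -2.50 and -3.01 with 49 and 99 bases added to the span, and -1.77 without hairpins that have a copy. It was below 0 in all of these. No paired analysis was possible because both libraries belong to 1 group. Depth limits single values in the 31 hairpins with 10 to 19 reads, and the level of a hairpin with a copy depends on how reads that match several places were assigned.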
